A study of Homo sapiens with 6 samples.

Results

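The SOX transcription factors were followed in RNA sequencing of 6 libraries labelled Hep3B, a human liver cancer cell line. The genes were taken by name, as the rows of the deposited table for SOX2, SOX4, SOX5, SOX6, SOX7, SOX9, SOX12, SOX13, SOX18 and SOX21. Of these 10 genes, 9 had a row among the 27009 genes of the table, and SOX5 was not analysed here. The cells of all 6 libraries carried a knockout of endogenous PD-L1, the immune checkpoint ligand encoded by CD274. In 3 libraries the cells held an empty vector. In the other 3 they held nPD-L1, a PD-L1 carrying amino acid changes that enforce its presence in the nucleus. The nPD-L1 insert, driven by a CMV promoter, was delivered by lentivirus and antibiotic selection, and the sources used here do not say whether the replicates were separate cultures or lines. The study asked how gene expression differed between the vector and nPD-L1 cells.

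The values are scaled reads, which are the reads counted on a gene divided by a factor for the library. Recovered depths were 17427519 to 22253295 reads on genes. CD274 itself had 28.3, 38.4 and 47.8 scaled reads with the vector against 16.8, 19.2 and 30.9 with nPD-L1. It was thus not higher in the cells said to carry added PD-L1 sequence, and the groups overlapped (limma adjusted p = 0.338). Every direction below therefore rests on the labels. Defining hepatocyte genes were nearly absent from all 6 libraries. ALB, which encodes albumin, and the apolipoprotein genes APOA1 and APOB lay between 0 and 2.02 scaled reads, and TTR, which encodes transthyretin, between 0 and 2.89. The fibrinogen gene FGB was present, at 962 to 1540 scaled reads, as was KRT7, a keratin of bile duct epithelium, at 24580 to 37360. The cell line name is therefore used here only as a label.

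SOX proteins bind DNA through an HMG box, a domain that fits into the minor groove and bends the helix. They are sorted into groups by the sequence of that box, and members of a group often stand in for each other. SOX2 keeps embryonic and neural stem cells undifferentiated, SOX9 marks bile duct and progenitor cells of the liver and directs cartilage formation, and SOX18 and SOX7 act in the vessel wall.

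The largest differences within the family lay in SOX2 and SOX21, which were lower in the nPD-L1 libraries, and in SOX18, which was higher (SOX2, 499 ± 154 against 103 ± 40.4 scaled reads; SOX21, 406 ± 40.7 against 70.6 ± 11.8; SOX18, 13.3 ± 7.17 against 277 ± 86.7; vector against nPD-L1, mean ± SD, n = 3 in each group). SOX13 was also higher, while SOX4, SOX12 and SOX9 differed less, by 1.17 to 1.23 times in their means. SOX6 and SOX7 were close to absent. In bulk RNA, fewer cells of a type and less RNA per cell cannot be told apart. The genes were picked with earlier results of this comparison known, so their differences are given as a description, with no p-value.

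**Figure D1:**
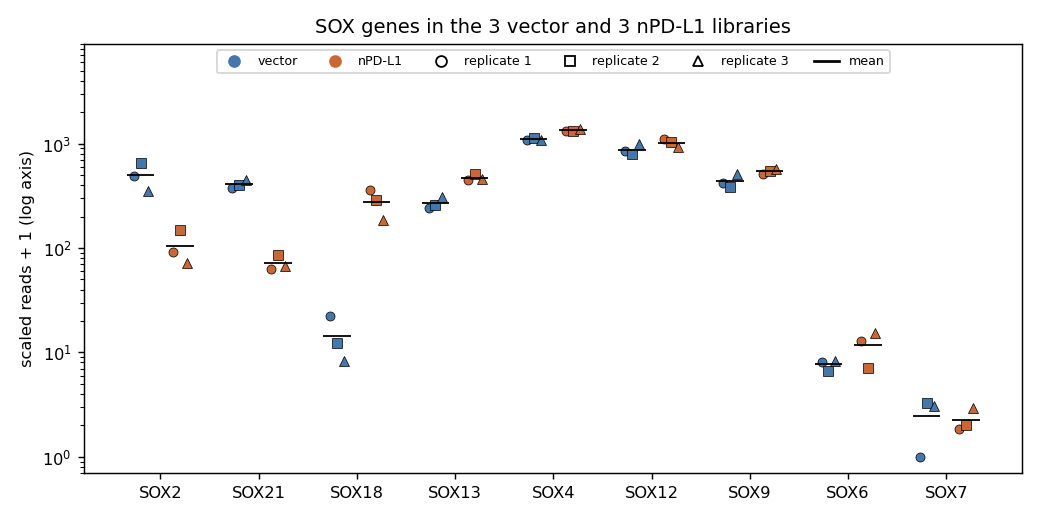
Scaled reads + 1 on a log axis for the 9 SOX genes in each library, with vector libraries in blue, nPD-L1 libraries in orange, a marker shape for each replicate number and a bar at the group mean. All 3 nPD-L1 libraries sit below the vector libraries for SOX2 and SOX21 and above them for SOX18 and SOX13, whereas SOX12, SOX6 and SOX7 overlap.

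SOX2 (ENSG00000181449) is a single-exon gene on the + strand of chromosome 3, from 181711924 to 181714436 of GRCh38. It belongs to group B1, whose proteins activate transcription. SOX21 (ENSG00000125285), also a single-exon gene, lies on the − strand of chromosome 13 from 94709622 to 94712399. It belongs to group B2, whose proteins bind the same sites as repressors. The RefSeq promoter windows of both, from 250 bases before to 50 bases after the RefSeq start in GRCh38.p14, are printed because these genes were lower together. The window of SOX13, which was higher, is set beside them. The RefSeq start of SOX21 differs from the one given above, whose base 94712399 lies outside the printed window. Capitals mark matches to core letters that SOX proteins bind (either ACAAAG or, with another base near its end, ACAATG) and to CCAAT, a common promoter element that reads ATTGG on the other strand. Both strands were searched.
SOX2, chr3:181711675-181711974, + strand: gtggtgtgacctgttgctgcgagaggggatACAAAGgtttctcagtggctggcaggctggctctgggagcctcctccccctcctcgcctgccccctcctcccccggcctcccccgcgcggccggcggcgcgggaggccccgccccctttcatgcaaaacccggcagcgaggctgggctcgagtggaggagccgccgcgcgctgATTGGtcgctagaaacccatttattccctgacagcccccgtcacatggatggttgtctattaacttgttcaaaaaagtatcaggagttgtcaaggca
SOX21, chr13:94712496-94712795, − strand: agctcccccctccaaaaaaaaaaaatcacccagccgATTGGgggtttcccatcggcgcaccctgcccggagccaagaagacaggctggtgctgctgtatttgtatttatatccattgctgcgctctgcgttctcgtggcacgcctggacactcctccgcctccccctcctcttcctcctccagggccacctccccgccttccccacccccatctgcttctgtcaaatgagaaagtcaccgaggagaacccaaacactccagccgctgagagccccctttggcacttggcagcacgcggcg
SOX13, chr1:204072865-204073164, + strand: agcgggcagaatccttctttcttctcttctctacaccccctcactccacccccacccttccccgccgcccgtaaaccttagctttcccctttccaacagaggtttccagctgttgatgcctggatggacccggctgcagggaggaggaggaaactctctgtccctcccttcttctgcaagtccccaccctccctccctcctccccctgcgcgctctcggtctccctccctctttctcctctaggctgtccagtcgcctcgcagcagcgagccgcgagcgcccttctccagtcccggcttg
The SOX2 window held ACAAAG at position −220 and ATTGG at −47, counted from the RefSeq start. The SOX21 window held ATTGG at −214, and the SOX13 window held no match to either. Neither AP-1 letters (TGANTCA) nor SMAD letters (CAGAC) occurred in these 3 windows. Over 35116 RefSeq windows of the same length, 24.5% held the SOX letters, 34.6% CCAAT, 7.71% the AP-1 letters and 45.3% the SMAD letters. GC content was 63.3% for SOX2, 60.0% for SOX21 and 62.7% for SOX13, against a median of 58.7% over all windows. Windows were found for 7 of the 10 genes (SOX6 had 5). SOX9 and SOX18 had none in the table used here, and SOX7 was not looked up.

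SOX2 had 494, 655 and 348 scaled reads in vector replicates 1, 2 and 3, and 89.9, 149 and 71.4 in nPD-L1 replicates 1, 2 and 3. The groups were separate, with the lowest vector library 2.34 times the highest nPD-L1 library, although both groups spread widely around their means. On the log2(scaled reads + 1) scale SOX2 was lower by 2.28 (log2 fold change −2.28, SE 0.28), and the ratio of the group means was 4.83. SOX21 had 371, 396 and 451 scaled reads with the vector and 61.3, 83.9 and 66.6 in the nPD-L1 libraries. Its groups lay further apart than those of SOX2, the lowest vector library being 4.43 times the highest nPD-L1 library. The log2 fold change of SOX21 was −2.52 (SE 0.17), with a ratio of means of 5.75.

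The noncoding gene SOX21-AS1, which starts beside SOX21 on the opposite strand, was not on the list of SOX genes. It had 256, 210.1 and 229 scaled reads with the vector and 73.1, 107 and 99.4 in the nPD-L1 libraries, with no overlap. Its log2 fold change was −1.32 (SE 0.19, limma adjusted p = 0.00175). It fell, with a fold change smaller in size than that of SOX21, a difference that was not tested. The 2 genes lie 316 bases apart in the GENCODE release 29 annotation and share no exon base. Their promoter windows, placed from RefSeq starts, share 270 of 300 bases. The kit does not mark strand, so reads in any unannotated overlap of the pair cannot be told apart. SOX2-OT, the noncoding gene that spans SOX2, was too low to test, with 3, 9 and 8 recovered reads with the vector and 3, 2 and 4 in the nPD-L1 libraries. No exon base of SOX2 is shared with it.

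SOX18 (ENSG00000203883; − strand of chromosome 20, 64047582 to 64049641, 2 exons) encodes a group F factor needed for lymphatic and blood vessel formation. It had 21.2, 11.3 and 7.27 scaled reads with the vector and 359, 287 and 186 in the nPD-L1 libraries. The lowest nPD-L1 library was 8.78 times the highest vector library, and the ratio of the group means was 20.9. The log2 fold change was 4.36 (SE 0.37), a value that the added pseudocount makes smaller, since the vector level was low. SOX18 had 10 or more scaled reads in only 2 of the vector libraries, so it entered the test through its nPD-L1 values. SOX7, the related group F gene, had 0, 2 and 2 recovered reads with the vector and 1, 1 and 2 in the nPD-L1 libraries. A count of 0 allows up to 3 reads, so no difference in SOX7 was detectable at this depth.

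Markers of endothelial cells, where SOX18 is usually found, were measured beside it. Of 10 listed, 4 had a row, and their summed level was 47.4 to 88.8 scaled reads with the vector and 75.2 to 81.5 in the nPD-L1 libraries. Nearly all of that sum was ESAM, an adhesion molecule gene and the only one tested, which did not pass (limma adjusted p = 0.844). PECAM1 and VWF, which define endothelial cells, lay between 0 and 3.03 over all 6 libraries. TEK, which encodes the angiopoietin receptor, had 1.01, 0 and 2.08 scaled reads with the vector and 4.20, 4.05 and 3.86 with nPD-L1. It was thus higher, in the same direction as SOX18, and too low to test. PECAM1 went the other way, with 3.03, 1.13 and 2.08 against 0, 1.01 and 0.96, also too low to test. The part of endothelial RNA in the SOX18 difference was not tested.

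The group D proteins carry a coiled coil and no activation domain, and pair with each other on DNA. SOX13 (ENSG00000143842; + strand of chromosome 1, 204073115 to 204127743, up to 14 exons) had 238, 257.5 and 309 scaled reads in the vector libraries. The nPD-L1 libraries had 445, 506 and 455, all above the vector libraries, the lowest being 1.44 times the highest of those. The log2 fold change of SOX13 was 0.81 (SE 0.14), and the ratio of means 1.75. SOX6 (ENSG00000110693; − strand of chromosome 11, 15966449 to 16739591, up to 16 exons) had 7, 5 and 7 recovered reads with the vector and 14, 6 and 15 in the nPD-L1 libraries. It lay below the minimum for testing, and its groups overlapped.

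Group C holds SOX4 and SOX12, activators of neuronal and epithelial progenitors, of which SOX4 is often raised in tumours. SOX4 (ENSG00000124766; + strand of chromosome 6, 21592768 to 21598619, single exon) was the SOX gene with the most scaled reads in every library. It had 1093, 1120.3 and 1084 with the vector and 1307, 1325 and 1386 in the nPD-L1 libraries. The groups did not overlap, although the difference was small, with a log2 fold change of 0.28 (SE 0.09). SOX12 (ENSG00000177732; + strand of chromosome 20, 325595 to 330224, single exon) had 851, 786 and 981 scaled reads in the vector libraries. Its nPD-L1 libraries had 1110.1, 1033 and 923, and replicate 3 fell within the range of the vector libraries. The log2 fold change of SOX12 was 0.23 (SE 0.12).

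SOX9 (ENSG00000125398; + strand of chromosome 17, 72121020 to 72126420, 3 exons) is the group E member of the list. It had 419, 383 and 512 scaled reads with the vector and 513, 541 and 568 in the nPD-L1 libraries. The groups touched, the highest vector library and the lowest nPD-L1 library being almost equal, and the log2 fold change was 0.31 (SE 0.13). The noncoding gene SOX9-AS1, which shares no exon base with SOX9, had 6, 3 and 4 recovered reads with the vector and none in the nPD-L1 libraries. Set against a floor of 3 reads over the group, SOX9-AS1 was at least 4.83-fold lower in the nPD-L1 libraries, from very few reads. That value takes the 13 vector reads as exact.

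Of the 9 SOX genes with a row, 7 had at least 10 scaled reads in at least 3 libraries and entered the limma fit over 15076 genes. At an adjusted p under 0.05, SOX18 and SOX13 were called higher, as were 4.04% of all genes tested. SOX2 and SOX21 were called lower, as were 0.922% of all genes tested, and SOX4, SOX12 and SOX9 were not called. The groups did not overlap for 6 of the 7, against 20.6% of all genes tested. Since the genes were chosen with this comparison known, nothing is read from these shares. The median log2 fold change was 0.28 over the 7 SOX genes and −0.02 over all genes tested, whose median size was 0.16.

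**Figure D2:**
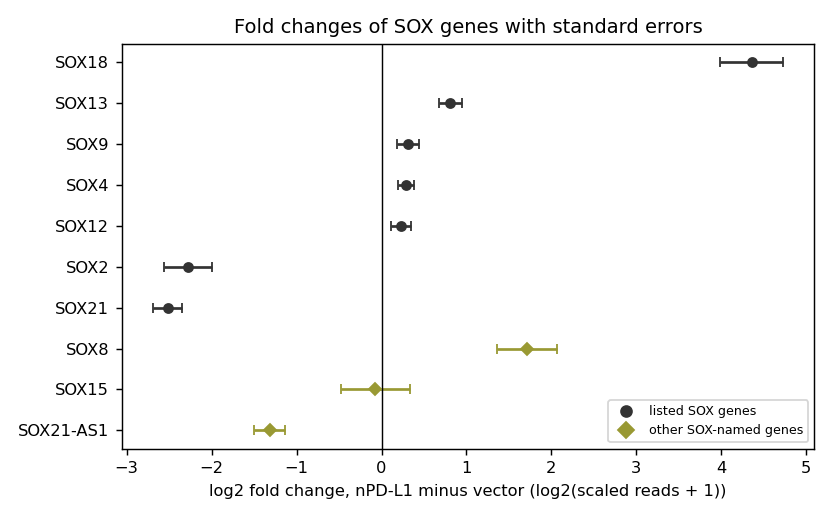
Log2 fold change (nPD-L1 minus vector, on log2(scaled reads + 1)) with its standard error for the 7 SOX genes tested (black circles) and the 3 other SOX-named genes tested (olive diamonds). SOX18 sits at 4.36 and SOX21 at −2.52, with SOX9, SOX4 and SOX12 between 0.23 and 0.31.

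Other SOX genes in the table were SOX3, SOX8, SOX10, SOX15 and SOX30. SOX8, a group E relative of SOX9, had 14.1, 7.91 and 16.6 scaled reads with the vector and 47.9, 42.5 and 38.6 in the nPD-L1 libraries. SOX8 rose, with a log2 fold change of 1.72 (SE 0.35, limma adjusted p = 0.0163), although it too met the minimum only with the help of its nPD-L1 values. The call was lost when any nPD-L1 replicate was left out (limma adjusted p = 0.102 without replicate 1, 0.0732 without replicate 2 and 0.0727 without replicate 3). SOX15, the only group G gene, had 11.3 to 16.6 scaled reads with the vector and 9.65 to 17.6 in the nPD-L1 libraries, and its groups overlapped. Its log2 fold change was −0.07 (SE 0.41, 95% interval −0.97 to 0.82, limma adjusted p = 0.955), so a difference smaller than that interval was not detectable. SOX3, SOX10 and SOX30 had at most 4 recovered reads in any library.

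Levels were compared between SOX genes per kilobase of the gene length given in the table. In the vector libraries SOX2 had the highest mean level, 198.5 ± 61.1 scaled reads per kb (SD, n = 3), followed by SOX12 at 188.5 ± 21.4, SOX4 at 187.8 ± 3.24 and SOX21 at 146.3 ± 14.7. The first 3 of these did not differ beyond the spread of SOX2, whereas SOX21 lay below SOX4 by more than their spreads. SOX9 (111.3 ± 17), SOX13 (36.1 ± 4.91) and SOX18 (7.11 ± 3.84) came next, each separate from its neighbours by more than those spreads. In the nPD-L1 libraries SOX4 led at 228.9 ± 7.11 scaled reads per kb and SOX12 followed at 220.7 ± 20.3, again within their spread. SOX18 came next there at 148.8 ± 46.5, not separable from SOX9 at 137.4 ± 7.06. SOX13 (63.2 ± 4.36), SOX2 (41.1 ± 16.1) and SOX21 (25.4 ± 4.26) came below them, the last pair lying within the spread of SOX2. SOX6 and SOX7 stayed under 0.74 scaled reads per kb in every library.

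The change in order left the summed level of the 9 genes nearly where it was. The sum was 851, 903.6 and 874.7 scaled reads per kb with the vector and 904.6, 899.2 and 795.6 in the nPD-L1 libraries, and the groups overlapped. SOX2 made up 22.6% ± 6.52 of the sum with the vector and 4.70% ± 1.64 in the nPD-L1 libraries (SD, n = 3). For SOX21 the share was 16.7% ± 1.62 and 2.94% ± 0.46. SOX18 made up 0.818% ± 0.463 with the vector and 17.0% ± 4.37 in the nPD-L1 libraries. The group C genes held large shares in both groups of libraries, SOX4 with 21.4% and 26.55% and SOX12 with 21.5% and 25.5% (vector, then nPD-L1). SOX9 of group E had 12.7% and 15.95%, and its libraries overlapped. The shift in the make-up of the SOX transcript pool thus lay mostly in lower shares of group B and a higher share of SOX18.

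**Figure D3:**
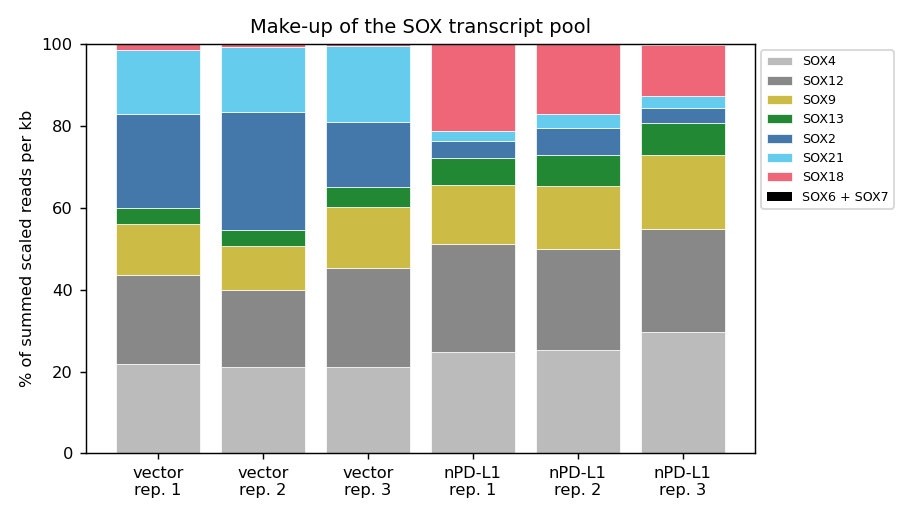
Share of each SOX gene in the summed scaled reads per kb of the 9 SOX genes, as stacked bars from 0 to 100% for each of the 6 libraries. SOX2 and SOX21 (blue shades) shrink to 3.57% to 6.58% and 2.44% to 3.36% in the nPD-L1 libraries, where SOX18 (red) takes 12.55% to 21.3%.

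The SOX18 level per kb was 0.0232 to 0.0579 times that of SOX2 with the vector and 2.61 to 5.38 times in the nPD-L1 libraries. The ratio of SOX2 to SOX21 per kb was 1.47, 1.83 and 0.853 with the vector and 1.62, 1.96 and 1.19 in the nPD-L1 libraries, which overlap. Within the groups the genes did not all vary together. Vector replicate 3 had the lowest SOX2 and SOX18 of its group and the highest SOX21, SOX13, SOX12 and SOX9. In the nPD-L1 group, replicate 3 again had the lowest SOX2 and SOX18, and the highest SOX4 and SOX9.

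The genes whose pattern over the 6 libraries was most like that of SOX2, SOX21 and SOX18 were sought by Pearson's r of log2(scaled reads + 1) among 10261 protein-coding genes with a mean of at least 100. For SOX2 they were CBX8 (r = 0.993), DUSP4 (0.987) and CCNJL (0.986). For SOX21 they were ZNF367 (r = 0.995), LURAP1L (0.994) and RMI1 (0.991), and for SOX18 CBFA2T2 (r = 0.998), CSAG3 (0.997) and CTDSP2 (0.994). These values describe 6 libraries that share 1 group difference. The partners in pattern moved by less than the SOX genes did, with log2 fold changes of −1.04 for CBX8, −1.94 for LURAP1L and 0.92 for CBFA2T2.

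SOX factors act with partners, such as POU factors, beta-catenin and RBPJ, the DNA-binding factor of Notch signalling. Of 20 partner and regulator genes, 18 had a row and 16 were tested. In this list 2 rose, none fell and 14 did not pass, with a median log2 fold change of 0.15 against −0.02 over all genes, of which 4.04% were called higher and 0.922% lower. RBPJ had 836 ± 56.7 scaled reads with the vector and 1175 ± 65.1 in the nPD-L1 libraries (SD, n = 3), with a log2 fold change of 0.49 (SE 0.10, limma adjusted p = 0.0186). TCF7L2, the HMG-box factor of Wnt signalling, had 850.1 ± 82.6 and 1149 ± 34.3, with a log2 fold change of 0.44 (SE 0.11, limma adjusted p = 0.0413). Both calls were lost without vector replicate 1 or without any single nPD-L1 replicate (limma adjusted p = 0.0572 to 0.119 for RBPJ and 0.089 to 0.194 for TCF7L2), and that of TCF7L2 also with upper-quartile factors (limma adjusted p = 0.0683). POU5F1, the classic partner of SOX2 in stem cells, had 23.5 ± 5.52 and 37.6 ± 15.1 scaled reads and did not pass (limma adjusted p = 0.55). CTNNB1, which encodes beta-catenin, had a log2 fold change of 0.29 (SE 0.09, limma adjusted p = 0.131).

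Of 45 genes listed as targets of SOX2, SOX9, SOX18 and SOX7, or SOX4, 35 had a row and 23 were tested. In all 3 rose, none fell and 20 did not pass, with a median log2 fold change of 0.10. Over all genes tested 4.04% were called higher and 0.922% lower, and nothing particular to the target lists is read from such small counts. Among the SOX2 targets 2 of 6 tested rose, while SOX2 was lower. NOTCH1, which encodes a Notch receptor, had 397 ± 121 scaled reads with the vector and 1499 ± 116 in the nPD-L1 libraries, a log2 fold change of 1.96 (SE 0.20, limma adjusted p = 0.000196). LEFTY2, an inhibitor of Nodal signalling, had no read with the vector and 24.3 ± 0.13 scaled reads in the nPD-L1 libraries (limma adjusted p = 0.000834). Against a floor of 3 reads over the group it was at least 23.3-fold higher, with its 78 nPD-L1 reads taken as exact. LEFTY2 entered the test only through its nPD-L1 values. The stem cell gene LIN28B did not pass, with 379 ± 94.7 and 247.5 ± 37.1 scaled reads (limma adjusted p = 0.145).

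Among 8 tested targets of SOX18 and SOX7, 1 rose. This was GATA2, a factor of blood and vessel cells, with 72.5 ± 10.1 scaled reads with the vector and 167 ± 19.1 in the nPD-L1 libraries, a log2 fold change of 1.20 (SE 0.18, limma adjusted p = 0.00304). VCAM1, an adhesion molecule gene bound by SOX18, had a log2 fold change of −0.69 (SE 0.25) and did not pass (limma adjusted p = 0.206), nor did PROX1, the lymphatic factor, at 0.20 (SE 0.19, limma adjusted p = 0.703). None of the 3 tested SOX9 targets passed, and 6 of the 12 with a row had under 10 scaled reads in every library. The cartilage genes COL2A1 and ACAN were among them. Of the other cartilage genes, COMP had no read with the vector and 1.68, 21.2 and 10.6 scaled reads with nPD-L1. COL9A3 had 0, 2.26 and 0 against 2.52, 10.1 and 8.68. Both were higher without overlap and too low to test, whereas the groups overlapped for COL2A1, ACAN, COL9A1, COL11A1, COL11A2 and MATN1. None of the 6 SOX4 targets passed, and their median log2 fold change was 0.05.

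**Figure D4:**
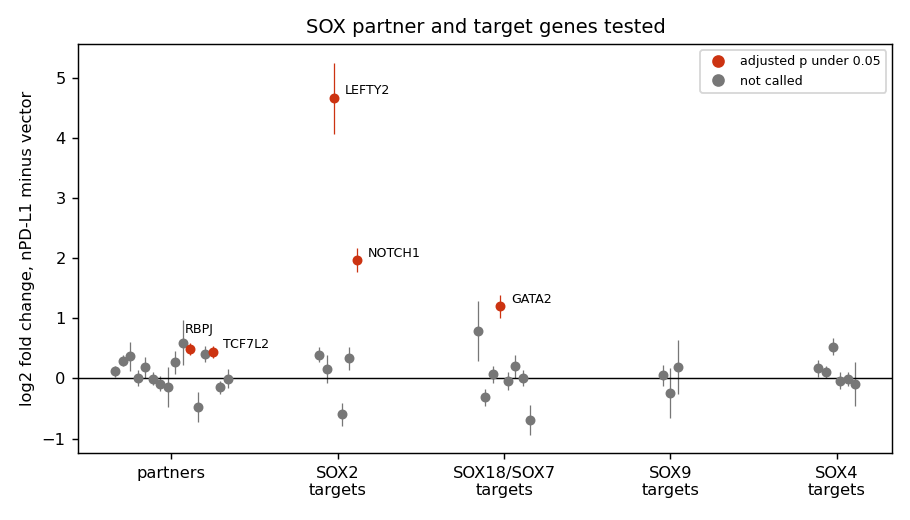
Log2 fold change (nPD-L1 minus vector) with its standard error for each tested partner and target gene, grouped by list, with red points for genes at an adjusted p under 0.05. The 5 red points are LEFTY2, NOTCH1, GATA2, RBPJ and TCF7L2, and all lie above 0.

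Other genes that the deposited table places in the HMG family were set beside the SOX genes. Of 27 such genes 26 were tested, 3 rose and 1 fell, with a median log2 fold change of 0.03, beside 4.04% higher and 0.922% lower over all genes tested. TCF7 (0.91, limma adjusted p = 0.0197) and UBTF, a factor of ribosomal RNA synthesis (0.42, limma adjusted p = 0.0407), rose with TCF7L2, and TOX3 fell by 0.73 (limma adjusted p = 0.0437). Each of these calls was lost without vector replicate 1, without nPD-L1 replicate 1 or without nPD-L1 replicate 3 (limma adjusted p = 0.0827 to 0.123 for TCF7, 0.11 to 0.174 for UBTF and 0.171 to 0.217 for TOX3). Without nPD-L1 replicate 2 the calls of TCF7 and UBTF were lost too (limma adjusted p = 0.0609 and 0.131), and that of UBTF also without vector replicate 3 or with upper-quartile factors (limma adjusted p = 0.0592 and 0.0718). No HMG gene outside the SOX family had a fold change as large in size as that of SOX2, SOX21 or SOX18.

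Markers of other cell types were measured in the same libraries. Of 9 hepatocyte genes 7 had a row and 3 were tested. HNF4A, a nuclear receptor of hepatocytes, rose from 12.2 ± 6.52 to 45.5 ± 10.2 scaled reads (limma adjusted p = 0.0232), a call lost without any 1 nPD-L1 replicate (limma adjusted p = 0.0633 to 0.134). HNF4A likewise met the minimum only with the help of its nPD-L1 values. FOXA2, a pioneer factor of liver and other endoderm, fell from 1854 ± 101 to 701 ± 40.6 scaled reads (limma adjusted p = 1.23e-05). The summed level of the hepatocyte genes was 1773 to 1972 with the vector and 718 to 811 with nPD-L1, nearly all of it FOXA2, while HNF4A went the other way. Of 6 bile duct genes 4 had a row, and their summed level overlapped between groups, at 29910 to 39030 and 28460 to 39960. Of 5 fibroblast genes 4 had a row and 2 were tested, and only the collagen gene COL1A1 passed, rising from 65.3 ± 16.5 to 466 ± 21.1 scaled reads (limma adjusted p = 7.99e-06). Their summed level was 170.4 to 245 with the vector and 586 to 655 with nPD-L1, a rise that was nearly all COL1A1. LUM, the other gene tested, had 131 ± 44.4 and 137 ± 24.7 scaled reads, with overlapping groups (limma adjusted p = 0.886). DCN lay between 0 and 5.04. Of 6 neural or stem cell genes 4 had a row, and neither of the 2 tested passed. Their summed level was 161.5 to 220.3 and 186 to 287.5, with PAX6 and POU3F2 under 10 in every library. The part of these genes in the SOX differences was not tested.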

How the data were processed

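Total RNA was isolated with TRIzol from 6 libraries of cells labelled Hep3B (3 vector, 3 nPD-L1), and libraries were made with the NEBNext Ultra RNA kit. The submitters' processing notes name CASAVA, HISAT2 version 2.0.5 and the hg38 build. The counter and annotation are not given in the sources used here, although all gene starts and ends (100%) match GENCODE release 29. The values the authors deposited are a signal, reads on a gene divided by a size factor of the library. All nonzero values (100%, tolerance 0.01) were whole multiples of each library's smallest value, so reads were recovered. The deposited log2 fold changes, p-values and group means of the authors were not used.

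A planned count model was replaced, because the values are not raw counts, by limma. The test used limma 3.58.1 under R 4.3.3 with log2(value + 1) as the response and eBayes moderation (trend and robust). Genes needed 10 or more scaled reads in 3 or more libraries, which 15076 did. Benjamini-Hochberg adjusted p-values cover all genes tested. edgeR 4.0.16 and DESeq2 1.42.0 on the recovered reads were alternatives, beside other scalings, pseudocounts, filters, a replicate block, a fold threshold and leaving out each library. The fits were tested on simulated data. P-values measure the spread between these libraries, which may be technical.

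The SOX genes, the partner, target and marker lists and all tests were chosen with earlier results of these data known. Named genes were all SOX genes and SOX-named noncoding genes in the table, the called genes of the lists, and the 3 genes most like SOX2, SOX21 and SOX18. Other genes named from the lists were chosen after their values were seen. Promoter windows came from RefSeq. Some results for single genes are not reported here.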

Additional observations from a re-analysis of the deposited data

How the results depend on the processing

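The 7 SOX genes tested were chosen with this comparison known, so their values under 17 alternatives are a description and not support. Log2 fold changes ranged from −2.58 to −2.05 for SOX2, −2.65 to −2.37 for SOX21, 3.62 to 4.74 for SOX18, 0.73 to 0.92 for SOX13, 0.23 to 0.30 for SOX4, 0.16 to 0.32 for SOX12 and 0.22 to 0.43 for SOX9. A further threshold of 1 on the size of the log2 fold change left 1 SOX gene higher instead of 2, since SOX13 lies below it. The 5 partner and target genes that rose became 3 under that threshold, 8 with no filter on low values and 8 with a replicate block, and 3 to 7 when 1 library was left out (3 without vector replicate 1 or without nPD-L1 replicate 1, 2 or 3). The number that fell went from 0 to 1 with the replicate block and ranged from 0 to 1 when 1 library was left out (1 without vector replicate 2). SOX15 ranged from −0.28 to 0.13 when 1 library was left out, changing sign to 0.05 without vector replicate 3 and to 0.13 without nPD-L1 replicate 3. The causes were not tested. Over all genes, 609 higher and 139 lower became 927 and 258 with the replicate block, 514 and 165 with upper-quartile factors, 306 and 68 with the fold threshold, and 350 to 793 and 77 to 244 when 1 library was left out. DESeq2 called 758 and 202, and edgeR 620 and 138.

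Same-numbered vector and nPD-L1 libraries shared deviations with r = −0.01, 0.23 and 0.13. Vector replicates 2 and 3 correlated best with their own number, whereas vector replicate 1 did so with nPD-L1 replicate 3 (r = 0.07). The numbers were not taken as pairs in the main fit, and the replicate block was run as an alternative. A coding-length scale was not run. Depth limited SOX6, SOX7 and the other SOX genes below the minimum of 10 scaled reads in 3 libraries, for which no difference could be tested.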
